A study of Mus musculus with 6 samples.

Results

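The 6 *Cyp4a* genes listed in the liver RNA-Seq of HFD-fed mice (HFD, high-fat diet) were examined: *Cyp4a10*, *Cyp4a14*, *Cyp4a31*, *Cyp4a32*, *Cyp4a12a* and *Cyp4a12b*, of 21528 genes listed in any library. They were found by gene name, and were selected on the FPKM of these same libraries, in which earlier results had shown *Cyp4a14* lower and *Cyp4a12a* higher in the knockin liver. FPKM count the fragments of a gene per length of its transcript and per mapped fragment of the library. The values of the 6 genes in the comparison of genotypes are therefore a description, without a test. The data came from 1 liver library each of 3 WT mice and 3 TRIM24C52/55A mice. The TRIM24C52/55A mice were homozygous knockins, made with CRISPR/Cas9, in which Cys52 and Cys55 of the endogenous TRIM24 were replaced by alanine, and the WT mice were littermates from matings of heterozygotes. All 6 mice were C57BL/6 by their labels (the knockin was made on the C57Bl/6J substrain) and 5 months old, and had been fed for 3 months a diet with 60% of its energy from fat, so that the WT livers are HFD livers and not chow livers. The mutation was in the germline and so in every cell type of the liver.

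The CYP4A enzymes are cytochrome P450 monooxygenases of the endoplasmic reticulum that hydroxylate the terminal (omega) carbon of fatty acids. The omega-hydroxy acids are oxidised further to dicarboxylic acids, which are shortened in peroxisomes, a route that is used more when fatty acids are abundant. In mouse liver *Cyp4a10* and *Cyp4a14* are classic target genes of PPARα, the fatty acid-activated nuclear receptor, whereas *Cyp4a12a* encodes the enzyme that makes the vasoactive lipid 20-HETE and is more highly expressed in males. TRIM24 is an E3-ligase that also acts as a co-regulator of nuclear receptors.

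The 6 genes lay within 322.557 kb of chromosome 4 (GRCm38, intervals as the authors' files give them, with starts counted from 1). In order along the chromosome they were *Cyp4a12a* (chr4:115299046-115332815), *Cyp4a12b* (chr4:115411624-115439034), *Cyp4a14* (chr4:115486200-115496142), *Cyp4a10* (chr4:115518264-115533649), *Cyp4a31* (chr4:115563649-115579015) and *Cyp4a32* (chr4:115600969-115621602). All of these intervals were the same as those of protein-coding genes in GENCODE M21. *Cyp4a14*, with the shortest interval (9.943 kb), was on the minus strand and the other 5 were on the plus strand. The pseudogene *Cyp4b1-ps2* lay between *Cyp4a31* and *Cyp4a32*. *Cyp4a14* and *Cyp4a10* were 22.121 kb apart, and the *Cyp4a12* copies 78.808 kb.

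How alike the copies are bears on every value below, because a fragment from an identical stretch cannot be assigned to 1 gene by its sequence. The first 60 coding bases of each gene (all within 1 exon, 5′ to 3′ on the coding strand, GRCm38) show the 3 degrees of likeness. In the pair *Cyp4a10* and *Cyp4a14* capitals mark the 24 bases at which one differs from the other.
Cyp4a10 (chr4:115518322-115518381, plus strand): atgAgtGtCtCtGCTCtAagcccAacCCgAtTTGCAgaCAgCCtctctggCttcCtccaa
Cyp4a14 (chr4:115496054-115496113, minus strand): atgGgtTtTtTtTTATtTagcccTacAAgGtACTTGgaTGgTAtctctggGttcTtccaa
In *Cyp4a31* and *Cyp4a32* capitals mark the 3 bases and the 1 base that differ from *Cyp4a10*.
Cyp4a31 (chr4:115563717-115563776, plus strand): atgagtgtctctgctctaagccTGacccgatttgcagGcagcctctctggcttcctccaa
Cyp4a32 (chr4:115600975-115601034, plus strand): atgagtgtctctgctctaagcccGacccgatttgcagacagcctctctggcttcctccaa
The first 60 coding bases of *Cyp4a12a* (chr4:115299128-115299187, plus strand) and of *Cyp4a12b* (chr4:115411683-115411742, plus strand) were the same.
Cyp4a12a and Cyp4a12b: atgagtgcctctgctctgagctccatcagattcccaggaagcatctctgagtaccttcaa
A stretch of a later exon, coding bases 630 to 689, is shown because it tells these copies apart, at the 4 bases in capitals.
Cyp4a12a (chr4:115326628-115326687, plus strand): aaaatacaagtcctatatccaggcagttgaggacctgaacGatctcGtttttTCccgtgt
Cyp4a12b (chr4:115432881-115432940, plus strand): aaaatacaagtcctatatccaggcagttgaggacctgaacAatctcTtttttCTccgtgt

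Over the whole coding sequence *Cyp4a12a* and *Cyp4a12b* were 98.49% identical, with 23 differences. *Cyp4a10* was 97.19% identical to *Cyp4a32* and 96.6% to *Cyp4a31*, and the latter pair were 96.01% identical to each other. *Cyp4a14* stood alone, with between 75.37% and 75.97% identity to the other 5. Of all 75-base windows of its transcript, *Cyp4a12a* shared 40.84% with *Cyp4a12b*. The shares with any other annotated *Cyp4a* gene were 30.36% for *Cyp4a32*, 19.07% for *Cyp4a10* and 13.35% for *Cyp4a31*, whereas *Cyp4a14* shared 0 of 2422 windows. The read length is not given in the sources used here, and longer stretches were shared less: of 150-base windows the shares were 25.6%, 7.97%, 4.337% and 4.195%, and 0 for *Cyp4a14*. Coding identity was compared among the 6 genes only. Windows were compared with the annotated transcripts of all genes named *Cyp4a*, members or not, and not with other transcripts. The split between *Cyp4a12a* and *Cyp4a12b*, and between *Cyp4a10*, *Cyp4a31* and *Cyp4a32*, is uncertain as far as fragments of shared windows were assigned to one copy or another. How the authors' processing assigned them is not given in the sources used here. Sums over near-identical copies depend less on that split and are given beside the single genes. The annotated transcripts of *Cyp4a12a* and *Cyp4a12b* are of nearly the same length (2422 and 2395 bases), so that their summed FPKM hardly depend on it, whereas those of *Cyp4a10*, *Cyp4a31* and *Cyp4a32* differ (2109, 2509 and 1530 bases).

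The libraries had similar depth. FPKM keep no total count, but their smallest increments put the libraries at 0.962 to 1.03 of the depth of WT replicate 1. The steps also gave an approximate number of fragments behind each value, which was lowest for *Cyp4a12b* in WT replicate 3 (about 151 fragments, a counting SD of 8.13%) and at least about 2480 for *Cyp4a10* and 3520 for *Cyp4a14*. Of 10 hepatocyte markers 9 were listed in all 6 libraries, and *Xist* was at most 0.00403 FPKM whereas the Y-linked *Eif2s3y* was between 24.2 and 28.8 FPKM in all 6 (the labels give no sex). TRIM24C52/55A replicate 2 stood apart in adipocyte markers: 13 of 17 were above 0.5 FPKM there against 6 to 8 in the other libraries, and *Adipoq* and *Lep* were at 4.55 and 3.98 FPKM there against at most 0.127 FPKM and no listing elsewhere. WT replicate 1 stood apart in other lists: its lymphocyte and erythroid markers summed to 1803 FPKM against 525 to 943 FPKM in the other libraries, and its cholangiocyte markers to 59.9 FPKM against 27.4 to 44.1 FPKM. Of the other marker lists, 1 hepatocyte gene was called higher (*Cps1*) and 1 endothelial gene lower (*Lyve1*), and 0 Kupffer cell, stellate cell, cholangiocyte, or lymphocyte and erythroid genes were called in limma (in that order, 1 of 10, 5 of 10, 3 of 5 and 4 of 6 had an unadjusted p under 0.05). That p was also met by 6 of 9 hepatocyte and 1 of 10 endothelial markers tested. Among all 12225 genes tested, those that averaged 0.5 FPKM or more, 6.09% were called lower, 1.64% higher and 7.72% in either direction, and 23.6% had an unadjusted p under 0.05. The *Cps1* call was lost in 5 and the *Lyve1* call in 4 of the 6 fits that left out 1 library. Without WT replicate 1 the log2 fold changes of *Cyp4a14*, *Cyp4a10*, *Cyp4a12a* and *Cyp4a12b*, given in full below, were -2.31, -1.26, 1.69 and 2.11, and without TRIM24C52/55A replicate 2 they were -2.03, -0.94, 1.69 and 2.11. *Trim24* itself had 5.54, 4.85 and 5.96 FPKM in WT livers, against 6.15, 4.31 and 8.46 FPKM in TRIM24C52/55A livers, and substitutions within its coding sequence do not check the labels.

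*Cyp4a14* and *Cyp4a10*, the classic PPARα-inducible copies, were both lower in the TRIM24C52/55A liver. *Cyp4a14* had 475, 438 and 731 FPKM in WT livers, against 136, 86.0 and 125 FPKM in TRIM24C52/55A livers (here and below in the order of replicates 1 to 3). The groups did not overlap: the lowest WT liver was 3.23 times the highest TRIM24C52/55A liver. Its mean was 548 ± 160 FPKM (SD, n = 3) in WT and 116 ± 26.1 FPKM (SD, n = 3) in TRIM24C52/55A livers, a ratio of 4.74, and its log2 fold change on the scale of log2(FPKM + 1), used for all log2 fold changes here, was -2.22 (SE 0.30), and -2.03 without TRIM24C52/55A replicate 2. *Cyp4a10* had 246, 239 and 288 FPKM in WT livers, against 103, 71.8 and 173 FPKM in TRIM24C52/55A livers. Here too the groups did not overlap, but the gap was narrower, with the lowest WT value 1.38 times the highest TRIM24C52/55A value, since TRIM24C52/55A replicate 3 was well above the other two. The means were 258 ± 26.7 and 116 ± 51.9 FPKM (SD, n = 3 each), with a log2 fold change of -1.23 (SE 0.37), and without TRIM24C52/55A replicate 2, the lowest library, it was -0.94.

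The genotypes differed more in *Cyp4a14* than in *Cyp4a10*, although both genes had nearly the same mean in the TRIM24C52/55A liver. In WT livers *Cyp4a14* was 1.93, 1.84 and 2.54 times *Cyp4a10*. In TRIM24C52/55A livers the ratio was 1.32, 1.2 and 0.724, below every WT liver, and in replicate 3 *Cyp4a10* was the higher of the pair. By FPKM *Cyp4a14* ranked between place 120 and place 171 among all genes of a WT library and between 509 and 791 in a TRIM24C52/55A library. *Cyp4a10* ranked from 262 to 309 and from 409 to 926.

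*Cyp4a31* and *Cyp4a32*, which encode close relatives of CYP4A10, had been grouped with the inducible copies, but did not share the genotype difference of *Cyp4a10* and *Cyp4a14*. Induction itself was not measured. *Cyp4a31* had 6.92, 5.88 and 7.27 FPKM in WT livers, against 6.32, 5.21 and 8.70 FPKM in TRIM24C52/55A livers. *Cyp4a32* had 15.0, 13.9 and 14.5 FPKM in WT livers, against 13.5, 13.3 and 15.5 FPKM in TRIM24C52/55A livers. For both genes the genotypes overlapped, and the lowest and the highest value were both in TRIM24C52/55A livers. Their log2 fold changes were -0.01 (SE 0.20) and -0.04 (SE 0.07), and the sign of both turned with the scaling of the libraries or with 1 library left out. *Cyp4a10* shared 14.84% of its 75-base windows and 2.449% of its 150-base windows with *Cyp4a32*.

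**Figure D1:**
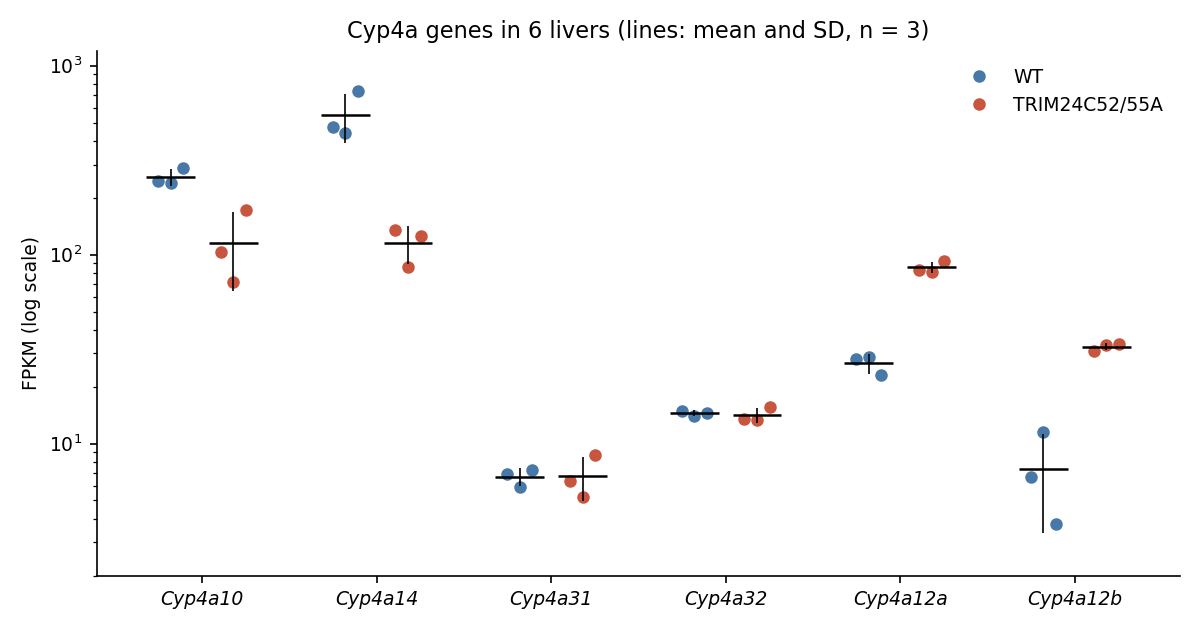
FPKM of the 6 *Cyp4a* genes (log axis) in each of 3 WT (blue) and 3 TRIM24C52/55A (red) liver libraries, with a point per library and lines for the mean and SD. *Cyp4a10* and *Cyp4a14* lay lower and *Cyp4a12a* and *Cyp4a12b* higher in all 3 TRIM24C52/55A libraries, and *Cyp4a31* and *Cyp4a32* overlapped.

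Relative to *Cyp4a10*, the low copies *Cyp4a31* and *Cyp4a32* were higher in the TRIM24C52/55A liver. *Cyp4a32* amounted to 6.08%, 5.85% and 5.04% of the *Cyp4a10* level in WT livers and to 13.1%, 18.5% and 8.99% in TRIM24C52/55A livers. *Cyp4a31* amounted to 2.46% to 2.81% in WT and 5.03% to 7.24% in TRIM24C52/55A livers, without overlap. Summed over *Cyp4a10*, *Cyp4a31* and *Cyp4a32*, the copies that share windows, the level was 279 ± 27.4 FPKM in WT and 137 ± 54.9 FPKM in TRIM24C52/55A livers (SD, n = 3 each), again without overlap.

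*Cyp4a12a* and *Cyp4a12b* were higher in the TRIM24C52/55A liver, opposite to *Cyp4a10* and *Cyp4a14*. *Cyp4a12a*, the main 20-HETE synthase gene, had 27.9, 28.7 and 23.0 FPKM in WT livers, against 83.1, 81.3 and 92.2 FPKM in TRIM24C52/55A livers. The lowest TRIM24C52/55A value was 2.83 times the highest WT value. The means were 26.6 ± 3.07 and 85.5 ± 5.86 FPKM (SD, n = 3 each), a ratio of 3.22, with a log2 fold change of 1.65 (SE 0.11). *Cyp4a12b*, its near-identical copy, had 6.62, 11.6 and 3.77 FPKM in WT livers, against 31.0, 33.1 and 33.5 FPKM in TRIM24C52/55A livers. The WT livers were spread widely, with a coefficient of variation of 54.0%, whereas the TRIM24C52/55A livers were close together, at 4.2%. The means of *Cyp4a12b* were 7.32 ± 3.95 and 32.5 ± 1.37 FPKM (SD, n = 3 each), a ratio of 4.44, with a log2 fold change of 2.12 (SE 0.41).

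The split between these copies also varied among the WT livers. *Cyp4a12a* was 4.22, 2.48 and 6.12 times *Cyp4a12b* in WT replicates 1 to 3 and 2.68, 2.46 and 2.75 times in TRIM24C52/55A replicates 1 to 3. These ratios overlapped. The sum of both copies was 34.6, 40.3 and 26.8 FPKM in WT livers, against 114, 114 and 126 FPKM in TRIM24C52/55A livers, a ratio of 3.48 between the means without overlap.

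The make-up of the family differed accordingly. All 6 genes together summed to 861 ± 181 FPKM in WT and 370 ± 78.8 FPKM in TRIM24C52/55A livers (SD, n = 3 each). *Cyp4a12* copies made up 4.44%, 5.47% and 2.51% of that sum in WT livers. In TRIM24C52/55A livers they made up 30.6%, 39.3% and 28.0%. The share of *Cyp4a14* was 63.0 ± 4.80% and 31.3 ± 4.50%, whereas that of *Cyp4a10* was 30.3 ± 2.93% and 30.3 ± 7.32% (SD, n = 3 each) and overlapped. The ratio of the other 4 genes to the *Cyp4a12* sum was 21.5, 17.3 and 38.8 in WT and 2.27, 1.54 and 2.57 in TRIM24C52/55A livers, a difference of -3.55 on the log2 scale (pooled SD 0.51).

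**Figure D2:**
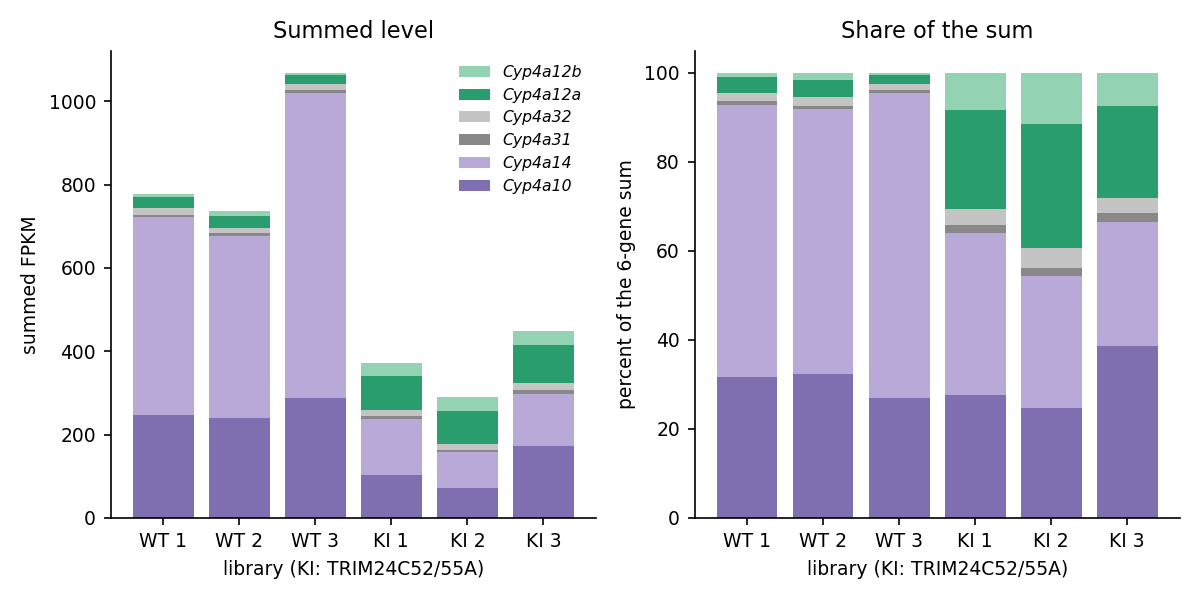
Summed FPKM of the 6 *Cyp4a* genes in each library (left) and the percent of that sum from each gene (right), for WT and TRIM24C52/55A (KI) replicates 1 to 3. The *Cyp4a12* copies (green) made up 2.51% to 5.47% of the sum in WT and 28.0% to 39.3% in TRIM24C52/55A livers.

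Of the 6 genes, 2 were lower and 2 were higher in the TRIM24C52/55A liver without overlap of the groups. Among the 12225 genes that averaged 0.5 FPKM or more, 22.5% were lower and 6.31% higher without overlap, and nothing is read from the count of members since they were selected on this comparison. In bulk liver, fewer cells of a type and less RNA per cell cannot be told apart, and *Cyp4a14* and *Cyp4a10* are expressed unevenly across the liver lobule. Kidney also expresses *Cyp4a* genes, and the 4 of its 8 proximal tubule markers that were listed summed to 0.0532 to 0.0784 FPKM in WT and 0.176 to 0.530 FPKM in TRIM24C52/55A livers. The other 4 had no row in any library and were not read as absent, since 1 abundant hepatocyte marker had no row either.

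Along the cluster the differences ran in neighbouring pairs. From the first gene on, *Cyp4a12a* and *Cyp4a12b* were higher, the neighbouring *Cyp4a14* and *Cyp4a10* were lower, and *Cyp4a31* and *Cyp4a32* at the far end overlapped. *Cyp4b1*, another fatty acid hydroxylase gene, begins 3.122 kb past *Cyp4a32* and had 17.6 ± 0.483 FPKM in WT and 15.3 ± 2.21 FPKM in TRIM24C52/55A livers, with a log2 fold change of -0.20 (SE 0.11, limma adjusted p = 0.322, corrected by Benjamini-Hochberg over all 12225 genes, as for every adjusted p here). Of 11 genes tested within 500 kb of the cluster, *Cyp4b1* included, 1 was called at an adjusted p under 0.05, a share near the 7.72% of all genes. It was *Cmpk1*, a nucleotide kinase gene 312 kb before *Cyp4a12a*, with a log2 fold change of -0.32 (SE 0.08, adjusted p = 0.0400), a call that was lost with any 1 library left out (adjusted p from 0.0170 to 0.268 over 15 alternatives).

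**Figure D3:**
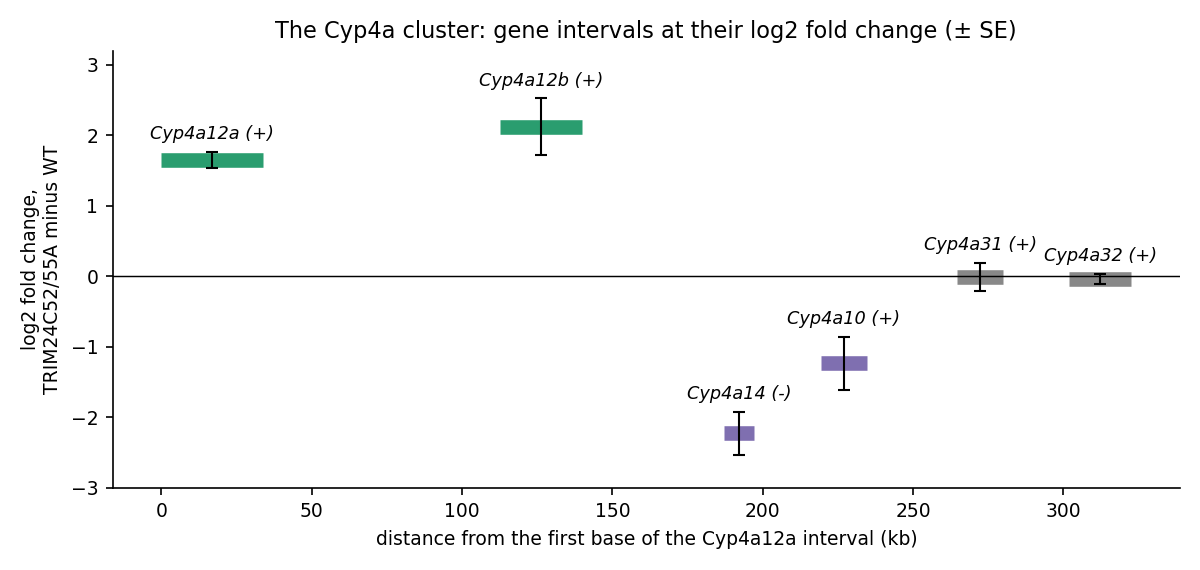
The 6 *Cyp4a* genes by distance (kb) from the first base of the *Cyp4a12a* interval, each drawn over its interval at its log2 fold change (bars, SE), with the strand in parentheses. The *Cyp4a12* copies were at 1.65 and 2.12, *Cyp4a14* and *Cyp4a10* at -2.22 and -1.23, and *Cyp4a31* and *Cyp4a32* near 0.

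The genes varied together in 2 ways, given as descriptions over 6 libraries that share the genotype difference. Over all 6 libraries Pearson's r of log2(FPKM + 1) was 0.909 between *Cyp4a10* and *Cyp4a14*, 0.964 between the *Cyp4a12* copies, and -0.973 between *Cyp4a14* and *Cyp4a12a*. Over the deviations from the genotype means, *Cyp4a10* varied most closely with *Cyp4a31* (r = 0.965) and *Cyp4a32* (r = 0.878), and less so with *Cyp4a14* (r = 0.618). In the TRIM24C52/55A livers all 3 were lowest in replicate 2 and highest in replicate 3, whereas in WT livers *Cyp4a10* was highest in replicate 3 and *Cyp4a32* in replicate 1. Over these deviations 126 of 12224 genes had r over 0.95 with *Cyp4a10*. These 3 genes share sequence windows, whose part in the relation was not tested.

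Among all genes tested, those with a pattern most like *Cyp4a14* over the 6 libraries were *Aldh3a2* (r = 0.999), which encodes the fatty aldehyde dehydrogenase that acts after omega-hydroxylation, *Lipg*, encoding endothelial lipase (r = 0.997), *Sema5b* (r = 0.995), *Paqr3* (r = 0.994) and *Commd9* (r = 0.994). For *Cyp4a12a* they were *Mup21* (r = 0.998), *Cd4* (r = 0.996), *Mug2* (r = 0.996), *Cyp2d9* (r = 0.995) and *Gm16551* (r = 0.994). *Mup21*, a major urinary protein gene, and *Cyp2d9*, a steroid hydroxylase gene, are male-biased in mouse liver. Over the 6 libraries 315 of 12224 genes had r over 0.95 with *Cyp4a14* and 106 with *Cyp4a12a*. Over the deviations from the genotype means the leading genes were others, namely *Klhl22*, *Gm37335*, *Slc25a13*, *Sbf2* and *Tapt1* for *Cyp4a14* (r from 0.987 to 0.997) and *Lama1*, *Sec24d*, *Gm28901*, *Ostc* and *Mblac2* for *Cyp4a12a* (r from 0.983 to 0.991).

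The rest of the CYP4 family was compared next, since these genes were not used to choose the 6 members. *Cyp4v3*, the fatty acid omega-hydroxylase gene whose human counterpart is mutated in a retinal dystrophy, rose in the TRIM24C52/55A liver. It had 108, 112 and 116 FPKM in WT livers, against 449, 349 and 415 FPKM in TRIM24C52/55A livers, without overlap, and its log2 fold change was 1.84 (SE 0.10, adjusted p = 8.52e-05 from limma). In the TRIM24C52/55A liver *Cyp4v3*, at 405 ± 50.7 FPKM, was above the sum of all 6 *Cyp4a* genes in 2 of 3 libraries (121%, 120% and 92.7% of that sum), whereas in WT livers it amounted to 13.9%, 15.2% and 10.9%. The *Cyp4f* genes, whose products hydroxylate leukotrienes and long-chain fatty acids, did not pass the test: *Cyp4f13*, *Cyp4f14*, *Cyp4f15*, *Cyp4f16* and *Cyp4f17* had log2 fold changes from 0.09 to 0.32. *Cyp4f13* was the nearest to it (0.32, SE 0.12, adjusted p = 0.153). *Cyp4f14*, the highest of them, had 89.6 ± 24.2 FPKM in WT and 110 ± 8.88 FPKM in TRIM24C52/55A livers (0.32, SE 0.17, adjusted p = 0.321). *Cyp4f18*, *Cyp4f37*, *Cyp4f39*, *Cyp4f40* and the pseudogene *Cyp4b1-ps2* were below the filter.

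Genes around the CYP4A enzymes were examined with a list of 36 omega-oxidation genes, 14 of which are other *Cyp4* hydroxylase genes. Of these 14, *Cyp4a29*, *Cyp4a30b* and *Cyp4x1* had no row in any library, and the others are described above. The remaining 22 were listed as electron donors or for the later steps. Of 21 tested 8 fell and 0 rose in limma (13 had an unadjusted p under 0.05), with a median log2 fold change of -0.32. Among all genes tested 6.09% were called lower and 1.64% higher, with a median of -0.08. Over the whole list, with 28 tested, 8 fell and 1, *Cyp4v3*, rose, with a median of -0.20. The split over all genes, 200 higher and 744 lower, depended on scaling: median-of-ratios scaling gave 250 and 406, quantile normalization gave 255 and 378, and TPM gave 197 and 1358. *Aldh3a2* had 320, 324 and 410 FPKM in WT livers, against 174, 143 and 174 FPKM in TRIM24C52/55A livers, and fell by 1.09 on the log2 scale (SE 0.12, adjusted p = 0.00273 from limma). *Acot4*, a peroxisomal thioesterase gene of dicarboxylic acids, fell by 1.24 (SE 0.21, adjusted p = 0.0131). Among the electron donors *Cyb5a*, encoding cytochrome b5, fell by 0.50 (SE 0.11, adjusted p = 0.0301), and *Por*, encoding the reductase that feeds electrons to the microsomal P450 enzymes, had 73.3 ± 13.9 FPKM in WT and 49.5 ± 9.24 FPKM in TRIM24C52/55A livers without passing the test (-0.56, SE 0.16, adjusted p = 0.0796). *Por* was called with TPM, with the replicate block and without TRIM24C52/55A replicate 3 (adjusted p from 0.0291 to 0.231 over 15 alternatives). Of 9 genes listed under dicarboxylic acid beta-oxidation 6 fell, including *Ehhadh*, *Acot8* and *Suclg1*. Among these 6, *Suclg1* and *Sucla2* encode subunits of succinyl-CoA synthetase, a mitochondrial enzyme and not one of peroxisomal beta-oxidation. The calls of *Cyb5a*, *Acot8*, *Ehhadh* and *Suclg1* were lost without WT replicate 1, WT replicate 3 or TRIM24C52/55A replicate 1, those of *Cyb5a* and *Acot8* also without WT replicate 2, those of *Acot8* and *Ehhadh* also without TRIM24C52/55A replicate 3, and that of *Acot4* without WT replicate 3. With quantile normalization *Cyb5a*, *Acot8*, *Ehhadh* and *Suclg1* were not called, nor were *Cyb5a* and *Ehhadh* with median-of-ratios scaling. The count over the whole list went from 9 to 3 without WT replicate 3 and to 4 without WT replicate 1 or without TRIM24C52/55A replicate 1.

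PPARα target genes other than *Cyp4a* were lower as well. Of 71 listed genes 68 were tested, of which 41 fell and 0 rose in limma (53 had an unadjusted p under 0.05), with a median log2 fold change of -0.54, beside 6.09% called lower and 23.6% under that p among all genes. The list was written with earlier results of these livers known and is not independent evidence of its direction. *Apoa4*, a lipoprotein gene, had 1031, 556 and 500 FPKM in WT livers, against 76.9, 119 and 137 FPKM in TRIM24C52/55A livers, and fell by 2.60 on the log2 scale (SE 0.29, adjusted p = 0.00273). *Acot3*, a peroxisomal thioesterase gene, fell by 2.21 (SE 0.32, adjusted p = 0.00774). *Vnn1*, encoding the pantetheinase vanin-1, went from 55.3 ± 10.2 to 14.6 ± 1.55 FPKM (-1.84, SE 0.14, adjusted p = 0.000494), and *Cd36*, encoding a fatty acid transporter, from 61.9 ± 8.48 to 19.1 ± 1.79 FPKM (-1.64, SE 0.12, adjusted p = 0.000333).

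By role, most peroxisomal genes fell. Of 12 genes of peroxisomal beta-oxidation 10 fell, with a median of -0.55, among them *Abcd2*, encoding a fatty acyl-CoA transporter (-1.34, adjusted p = 0.00489). *Ehhadh*, of the same route, fell by 0.41 on the log2 scale (adjusted p = 0.0482). Of 14 genes of mitochondrial beta-oxidation 7 fell, with a median of -0.32, among them *Cpt1a* (-0.50, adjusted p = 0.0170). Of 8 lipid droplet genes 5 fell, with a median of -0.95, led by *Cidec* (-2.36, adjusted p = 0.0286) and *Plin4* (-1.26, adjusted p = 0.0142). *Fgf21*, encoding a secreted fasting hormone, fell by 1.39 on the log2 scale (SE 0.28, adjusted p = 0.0248).

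Some well-known targets did not pass the test. *Angptl4*, encoding an inhibitor of lipoprotein lipase, was 58.7 ± 5.68 and 62.8 ± 18.7 FPKM (0.06, adjusted p = 0.903). *Pdk4* (-0.69, adjusted p = 0.126) and *Acot1* (-0.42, adjusted p = 0.260) did not pass the test either. *Pdk4* was called in limma with the replicate block only (adjusted p from 0.0276 to 0.275 over 15 alternatives). *Cidec* and *Fabp4* are also on the list of adipocyte markers, of which 16 of 17 were listed, with a summed level of 3613 to 4225 FPKM in WT and 3344 to 3432 FPKM in TRIM24C52/55A livers and 1 of 11 tested called. That sum does not measure adipocyte RNA, since *Car3*, *Cdo1* and *Pck1*, which hepatocytes express too, made up 97.6% to 99.7% of it. *Plin1* and *Retn* were at 3.32 and 1.59 FPKM in TRIM24C52/55A replicate 2, against at most 0.0263 FPKM and no listing elsewhere. Without TRIM24C52/55A replicate 2, the library with adipocyte markers, 37 PPARα targets were called lower. Without WT replicate 3 or without TRIM24C52/55A replicate 1 the calls of *Cidec*, *Plin4*, *Fgf21*, *Cpt1a* and *Ehhadh* were lost, and *Cidec*, *Plin4*, *Cpt1a* and *Ehhadh* also lost theirs without WT replicate 1. *Cidec*, *Fgf21* and *Ehhadh* were not called without TRIM24C52/55A replicate 3 either, nor *Ehhadh* without TRIM24C52/55A replicate 2 or with median-of-ratios scaling. *Cpt1a* and *Ehhadh* were not called with quantile normalization. WT replicate 1 was the highest library for *Apoa4*, *Fgf21* and *Cidec*, whose log2 fold changes without it were -2.28, -1.03 and -2.05. The count was 23 without WT replicate 1 or WT replicate 3 and 22 without TRIM24C52/55A replicate 1.

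**Figure D4:**
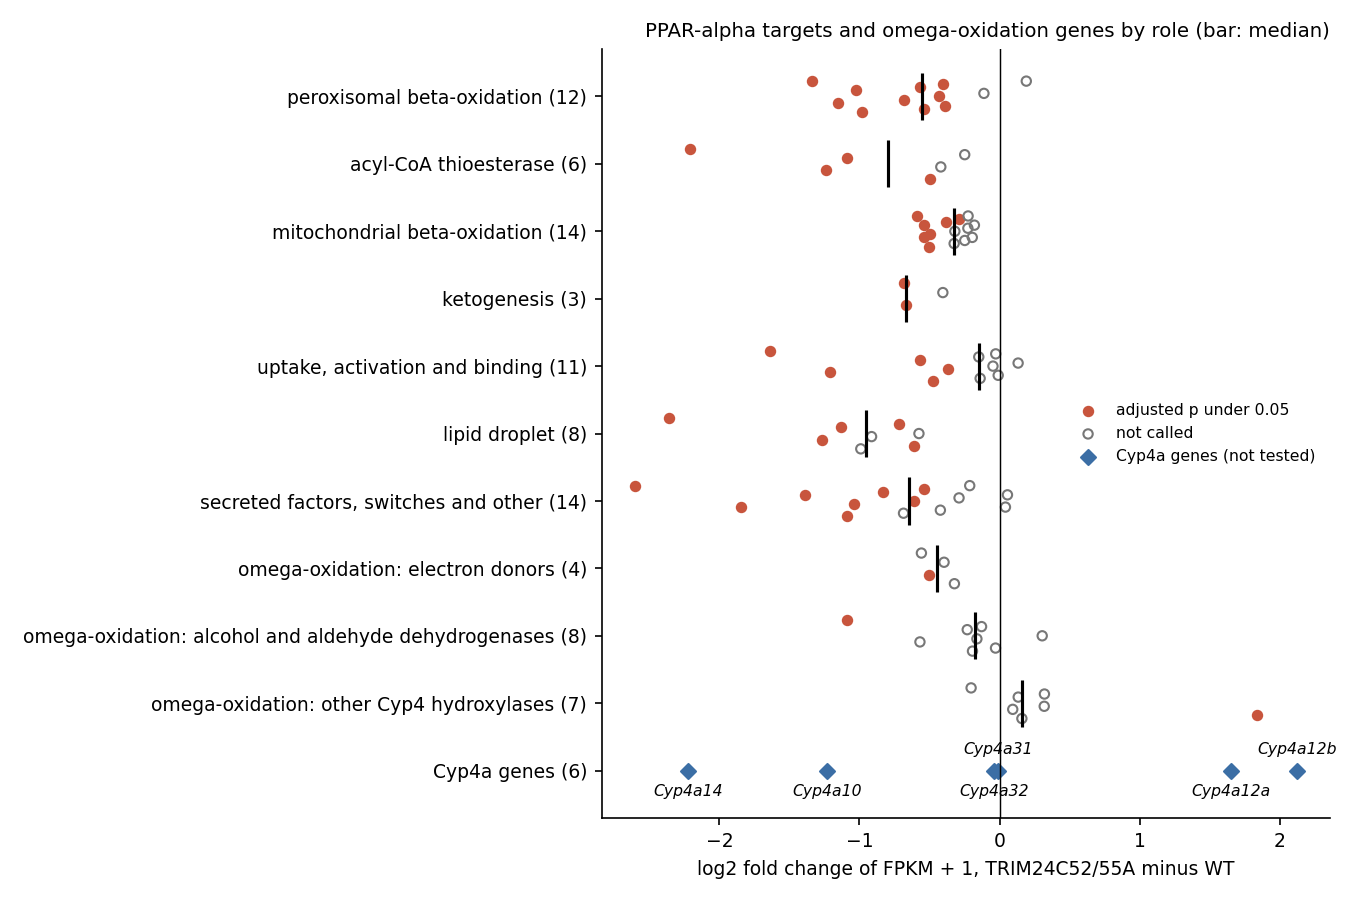
Log2 fold changes of FPKM + 1 (x axis, TRIM24C52/55A minus WT) for PPARα targets by role and for omega-oxidation genes (other *Cyp4* genes included), with filled points for an adjusted p under 0.05, open points for genes not called, bars for medians and the 6 *Cyp4a* genes as diamonds (not tested). *Cyp4v3* was the 1 gene called higher, and the peroxisomal genes had a median of -0.55.

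The mRNA of PPARα itself did not pass the test. *Ppara* had 28.0, 34.8 and 27.1 FPKM in WT livers, against 33.4, 19.8 and 21.2 FPKM in TRIM24C52/55A livers, which overlapped (-0.29, SE 0.19, adjusted p = 0.407). Its partner *Rxra* was 105 ± 7.20 and 96.2 ± 8.15 FPKM (-0.12, adjusted p = 0.472), and *Trim24* did not pass the test either (0.14, adjusted p = 0.713). Of 28 nuclear receptor and cofactor genes tested, 2 fell and 0 rose in limma (5 had an unadjusted p under 0.05), with a median of -0.08, shares near or below the 6.09% and 23.6% of all genes. *Pparg*, encoding the lipogenic PPARγ, went from 7.79 ± 2.01 to 2.29 ± 0.405 FPKM (-1.40, SE 0.18, adjusted p = 0.00491), and *Nr1i3*, encoding the xenobiotic receptor CAR, from 120 ± 19.6 to 68.3 ± 7.95 FPKM (-0.80, SE 0.13, adjusted p = 0.0127). *Nr1i3* lost its call without WT replicate 1. Which of the listed PPARα targets PPARγ also acts on was not tested.

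*Cyp4a12a* was set beside other male-biased genes of mouse liver, which the pulsatile growth hormone of males maintains. Of 27 such genes, all tested, 23 rose and 0 fell in limma (25 had an unadjusted p under 0.05), with a median log2 fold change of 1.57, beside 1.64% called higher and 23.6% under that p among all genes. This list and the female-biased one were also written with earlier results known and are not independent evidence of their direction. *Selenbp2*, encoding a selenium-binding protein, had 17.1, 34.9 and 15.5 FPKM in WT livers, against 783, 593 and 680 FPKM in TRIM24C52/55A livers (4.95, SE 0.27, adjusted p = 8.52e-05). *Hsd3b5*, a steroid reductase gene, had 2.79, 29.9 and 1.58 FPKM in WT livers, against 155, 107 and 140 FPKM in TRIM24C52/55A livers (4.31, SE 0.79, adjusted p = 0.0176). WT replicate 2 was the highest WT library for both, as it was for *Cyp4a12a* and *Cyp4a12b*, and was still below every TRIM24C52/55A library. *Mup21* went from 213 ± 35.7 to 1341 ± 92.0 FPKM (2.66, SE 0.13, adjusted p = 4.00e-05), and *Mup1*, *Mup7* and *Mup12* rose by 2.40 to 2.60. The *Mup* genes are near-identical copies whose split is uncertain, and the 23 calls count each listed *Mup* gene separately. *Hsd3b5* lost its call without WT replicate 1, WT replicate 3 or TRIM24C52/55A replicate 1, and *Mup7* without the first or the last of these. The count of male-biased genes called was 15 without WT replicate 1 or without TRIM24C52/55A replicate 1.

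Of 32 female-biased genes 22 were tested, of which 10 fell and 1 rose, with a median of -0.82, beside 6.09% and 1.64% of all genes. Of the 12 tested genes listed as enzymes, 4 fell and 0 rose, and 4 had log2 fold changes above 0. *Cyp17a1*, a steroid hydroxylase and lyase gene, went from 19.97 ± 4.17 to 1.75 ± 0.871 FPKM (-2.96, SE 0.23, adjusted p = 0.000494), and *Slc22a27*, *Cyp2a4*, *Nipal1* and *Hao2* fell by 1.03 to 2.02 on the log2(FPKM + 1) scale, which understates low genes. With a pseudocount of 0.1 the log2 fold changes of *Cyp2a4*, *Nipal1* and *Hao2* were -2.46, -1.96 and -2.48. *Cyp2a4* and *Hao2* were not called with median-of-ratios or quantile scaling. *Cyp2a4* also lost its call without any 1 of the libraries, and *Hao2* without any 1 but WT replicate 1. *Acot3* and *Abcd2*, on this list too, are the PPARα targets named above. *Lifr*, encoding a cytokine receptor, rose from 17.4 ± 2.64 to 42.1 ± 2.15 FPKM (1.23, SE 0.11, adjusted p = 0.00110). The count called lower was 6 without WT replicate 3 or without TRIM24C52/55A replicate 1.

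Among the growth hormone axis genes, of which 17 were tested, 0 were called in limma, and 2 had an unadjusted p under 0.05, a smaller share than the 23.6% of all genes. *Stat5b*, encoding the transcription factor through which growth hormone acts on male-biased genes, was 13.6 ± 0.700 FPKM in WT and 15.4 ± 3.21 FPKM in TRIM24C52/55A livers (0.15, SE 0.14, adjusted p = 0.572). *Bcl6*, encoding a repressor of female-biased genes, had 3.27, 6.36 and 3.08 FPKM in WT livers, against 28.7, 26.8 and 4.91 FPKM in TRIM24C52/55A livers, where replicate 3 stood with the WT livers (1.75, SE 0.57, adjusted p = 0.107). It was called without that library (adjusted p = 0.00173, the lowest over all alternatives, in which it reached 0.308). In that library *Cish*, *Socs2* and *Onecut1* were at 19.8, 18.7 and 21.7 FPKM, against at most 8.81, 4.34 and 2.43 FPKM in the others. *Stat5b* was lowest there, at 12.55 FPKM. With such spread within the group, the 0 calls do not show that the axis was level. *Cyp4a12a* was not lower in replicate 3, at 92.2 FPKM, than in the other TRIM24C52/55A libraries.

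**Figure D5:**
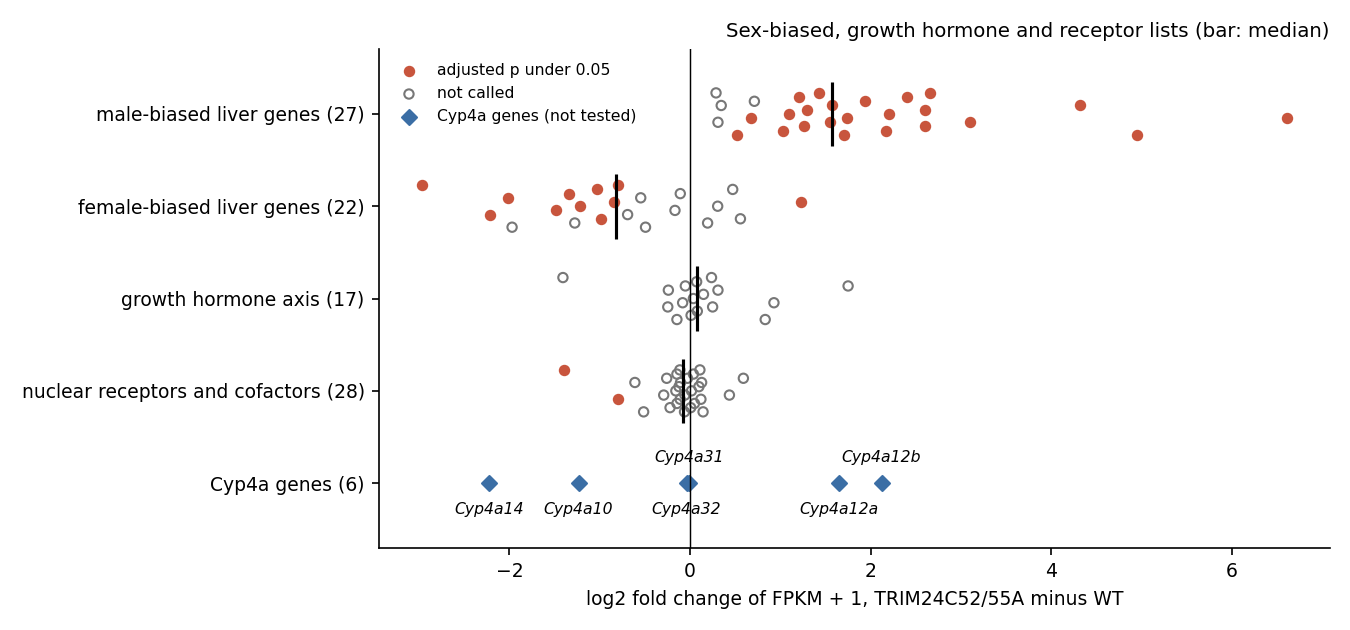
Log2 fold changes of FPKM + 1 (x axis, TRIM24C52/55A minus WT) for male-biased, female-biased, growth hormone axis, and nuclear receptor and cofactor genes, drawn as filled points (adjusted p under 0.05) or open points (not called) with a bar for the median, and the 6 *Cyp4a* genes as diamonds (not tested). The medians were 1.57, -0.82, 0.07 and -0.08 in that order of the lists.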

How the data were processed

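Total RNA of 6 livers (3 WT, 3 TRIM24C52/55A, 1 library per mouse) was sequenced, and the authors deposited FPKM per gene, 1 table per library, listing values above 0 only, so that a gene listed in other libraries only was taken as 0. A gene with no row in any library was not used here and not read as absent. The submitters' processing notes name bcl2fastq, Salmon 0.14.0, DESeq2 1.30.0 and the build GRCm38, without their roles, and how FPKM were computed is not given in the sources used here. Groups and replicate numbers came from the labels, and p-values measure the spread between libraries with separate replicate numbers. The members and the lists of genes were chosen with earlier results of these data known.

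A linear model was fitted to log2(FPKM + 1), a scale that understates the change of genes of low FPKM, for the 12225 genes that averaged 0.5 FPKM or more (limma 3.58.1, R 4.3.3, lmFit and eBayes with a trend), with two-sided p-values corrected by Benjamini-Hochberg over all genes and called under 0.05. The SE of members is from the spread within groups. The *Cyp4a* members were not tested. Coding sequences came from GENCODE M21, aligned with biopython 1.88 (Python 3.11.15, pandas 2.3.3, numpy 2.4.6, matplotlib 3.10.9). The fit was tested on simulated data.

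Named genes were the members, the other *Cyp4* genes, up to 8 genes of each list with the greatest changes among those called, a set of well-known genes whatever their values (some are not reported here), the 5 genes most like *Cyp4a14* and *Cyp4a12a*, and neighbours on chromosome 4. Genes named for adipocytes and for the Y chromosome came from the marker lists. Alternatives changed the pseudocount (0.1), the filter (none, or an average of 1 FPKM or more), the scaling (TPM, median-of-ratios, quantile), the variance model, the replicate block, and left out each library.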

Additional observations from a re-analysis of the deposited data

How the results depend on the processing

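The log2 fold changes of *Cyp4a10*, *Cyp4a14*, *Cyp4a12a* and *Cyp4a12b* kept their sign in all 15 alternatives, ranging from -1.57 to -0.94, -2.37 to -1.997, 1.56 to 1.81 and 1.77 to 2.47. Those of *Cyp4a31* (-0.19 to 0.14) and *Cyp4a32* (-0.11 to 0.08) changed sign, *Cyp4a32* being 0.058 with median-of-ratios and 0.076 with quantile scaling, which also gave *Cyp4a12a* 1.81. Genes called across all genes numbered 944, but 347 without a filter, 1555 with TPM, 578 with the replicate block, and 296 to 1272 with 1 library left out. Without a filter the counts were 22 PPARα targets lower, 3 omega-oxidation genes (4 with quantile normalization), 1 nuclear receptor or cofactor, 13 male-biased genes higher and 5 female-biased genes lower. With 1 library left out they were 22 to 37, 3 to 7, 1 to 3, 15 to 25 and 6 to 9. Of the growth hormone axis 1 gene was called with TPM and 1 with the replicate block, and 0 to 1 with 1 library left out. Same-numbered mice are different animals, and their deviations correlated at -0.12, -0.10 and 0.00, so the numbers do not pair them. With the replicate block *Cyp4a14* remained at -2.22 by construction. The depth limits *Cyp4a12b* and *Cyp4a31* most.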
